A study of Homo sapiens with 24 samples.

Results

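The 10 genes described here encode the machinery that carries a cell from G1 into S phase: the D-type cyclins CCND1, CCND2 and CCND3 with their kinases CDK4 and CDK6, the E-type cyclins CCNE1 and CCNE2 with their kinase CDK2, the retinoblastoma protein RB1 and the transcription factor E2F1. They were chosen by name for their place in this pathway, and all 10 were among the 28307 genes counted. The RNA came from established human cancer cells, SUM159 from breast and SW620 from colon. Both were grown attached to plastic and exposed for 30 h to nifuroxazide (NIF), a nitrofuran antibiotic, or to the solvent DMSO. The study lists its drug doses by cell line in a supplementary table that was not used here, so the dose is not given. After treatment the cells were sorted by the ALDEFLUOR assay, which reads aldehyde dehydrogenase activity, into a bright fraction (ALDHbr, labelled cancer stem cells) and a negative fraction (ALDHneg). Each of the 8 groups of line, fraction and treatment held 3 libraries, and the study describes 3 independent experiments for these lines. Each line stands for 1 tumor, so that line, tissue of origin and culture cannot be told apart.

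In the classical scheme, growth signals raise D-type cyclins, which bind CDK4 or CDK6 and begin to phosphorylate RB1. RB1 then releases E2F factors, and E2F1 turns on CCNE1, CCNE2, its own gene and the genes of DNA replication. Cyclin E with CDK2 completes the phosphorylation of RB1, while the inhibitors of the CIP/KIP family (CDKN1A, CDKN1B, CDKN1C) and the INK4 family (CDKN2A to CDKN2D) hold the kinases back. Cyclin D1 is amplified or overexpressed in many breast tumors, and much of the control of this pathway acts on protein level and phosphorylation, which RNA counts do not measure.

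E2F factors bind DNA sites that can lie just upstream of the genes they control. Whether such sites go with a gene's response to NIF was not tested. The 250 bases before the annotated start are shown for 2 of the 10 genes, E2F1 and CCNE1, and for 2 replication genes that come back below, CDC6 and TYMS. All were taken from RefSeq on the GRCh38.p14 build and are written 5′ to 3′ on the strand of the gene. Capitals mark the words TTTCCCGC, TTTCGCGC, TTTGCCGC and TTTGGCGC, a strict spelling of the E2F site, on either strand.
E2F1 (chr20:33686386-33686635, minus strand): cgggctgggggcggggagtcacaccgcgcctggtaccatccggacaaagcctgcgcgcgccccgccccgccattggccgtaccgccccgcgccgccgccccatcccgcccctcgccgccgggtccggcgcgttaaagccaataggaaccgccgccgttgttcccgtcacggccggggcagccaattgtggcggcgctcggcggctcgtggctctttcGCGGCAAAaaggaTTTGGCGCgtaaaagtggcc
CCNE1 (chr19:29811741-29811990, plus strand): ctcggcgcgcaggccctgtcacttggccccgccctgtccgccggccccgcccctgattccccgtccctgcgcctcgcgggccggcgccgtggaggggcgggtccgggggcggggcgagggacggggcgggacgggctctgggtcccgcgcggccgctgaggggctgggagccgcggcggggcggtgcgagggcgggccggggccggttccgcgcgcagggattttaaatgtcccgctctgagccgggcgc
TYMS (chr18:657403-657652, plus strand): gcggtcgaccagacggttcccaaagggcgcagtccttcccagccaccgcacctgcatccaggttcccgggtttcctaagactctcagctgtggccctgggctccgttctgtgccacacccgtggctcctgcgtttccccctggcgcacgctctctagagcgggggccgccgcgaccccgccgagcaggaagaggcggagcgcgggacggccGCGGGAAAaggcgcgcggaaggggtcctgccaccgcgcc
CDC6 (chr17:40287629-40287878, plus strand): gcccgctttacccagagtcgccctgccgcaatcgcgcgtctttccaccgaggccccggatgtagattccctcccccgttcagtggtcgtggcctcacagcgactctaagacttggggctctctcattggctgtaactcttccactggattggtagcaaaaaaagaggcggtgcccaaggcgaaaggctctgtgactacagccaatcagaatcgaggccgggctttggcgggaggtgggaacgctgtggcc
E2F1 carried 2 such words, which did not overlap, from -33 to -26 and from -20 to -13 relative to the start, and TYMS carried 1, from -39 to -32. None was found in the windows of CCNE1 and CDC6, which says only that these letters are not there. Of 35116 windows of this length, 979 (2.79%) held at least 1 of the 4 words. Of the 10 genes, 6 had an entry in the promoter table, namely CCND3, CDK4, CDK6, CCNE1, RB1 and E2F1, and E2F1 alone among them held a word. The RB1 window (chr13:48476200-48476449) lay inside the annotated gene (chr13:48303751-48481890), and so did the CCND3 windows (gene at chr6:41934933-42050035). The outermost starts of RB1 and CCND3 were therefore not searched.

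Total counts lay between 30253187 and 43127948 per library, so CCND2 was the only member with few counts. Levels are given as CPM, counts scaled to the size of the library, after TMM scaling within each line. ALDH1A1, an enzyme behind the ALDEFLUOR signal, stood at 104 to 218 CPM in ALDHbr and 0.300 to 0.631 CPM in ALDHneg libraries of SUM159. In SW620 ALDHneg cells also carried it, at 884 to 922 CPM against 1257 to 1357 CPM in ALDHbr cells under DMSO and 534 to 560 against 918 to 976 CPM under NIF. Mesenchymal markers summed to 6940 to 9060 CPM in SUM159 libraries and 15.7 to 53.6 CPM in SW620 libraries, and colon epithelial markers to 0.198 to 8.09 and 2200 to 2910 CPM. Some libraries stood apart from their group in the level of long genes. In SW620 ALDHbr cells under DMSO, replicate 2 showed genes spanning at least 100 kb at a median 0.0682 log2 units above shorter genes, against -0.223 and -0.169 in the other libraries of that group. CCND3 (span 115 kb), CDK6 (232 kb) and RB1 (178 kb) are such genes. In that group CDK6 stood at 88.0, 150 and 91.7 CPM and RB1 at 73.6, 95.3 and 72.9 CPM. CCND3 ran the other way, at 101, 93.8 and 105 CPM. Many member and list results that use this replicate 2 are given with and without it, and the others only with it. In the same long-gene measure, SW620 ALDHbr NIF replicate 3 stood at -0.147 against 0.0789 and 0.00225 in its group. SUM159 ALDHneg DMSO replicate 2 stood at -0.112 against 0.0313 and 0.0565. CDK6 in the former and the latter lay 0.391 and 0.305 log2 units under the mean of its line.

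**Figure D1:**
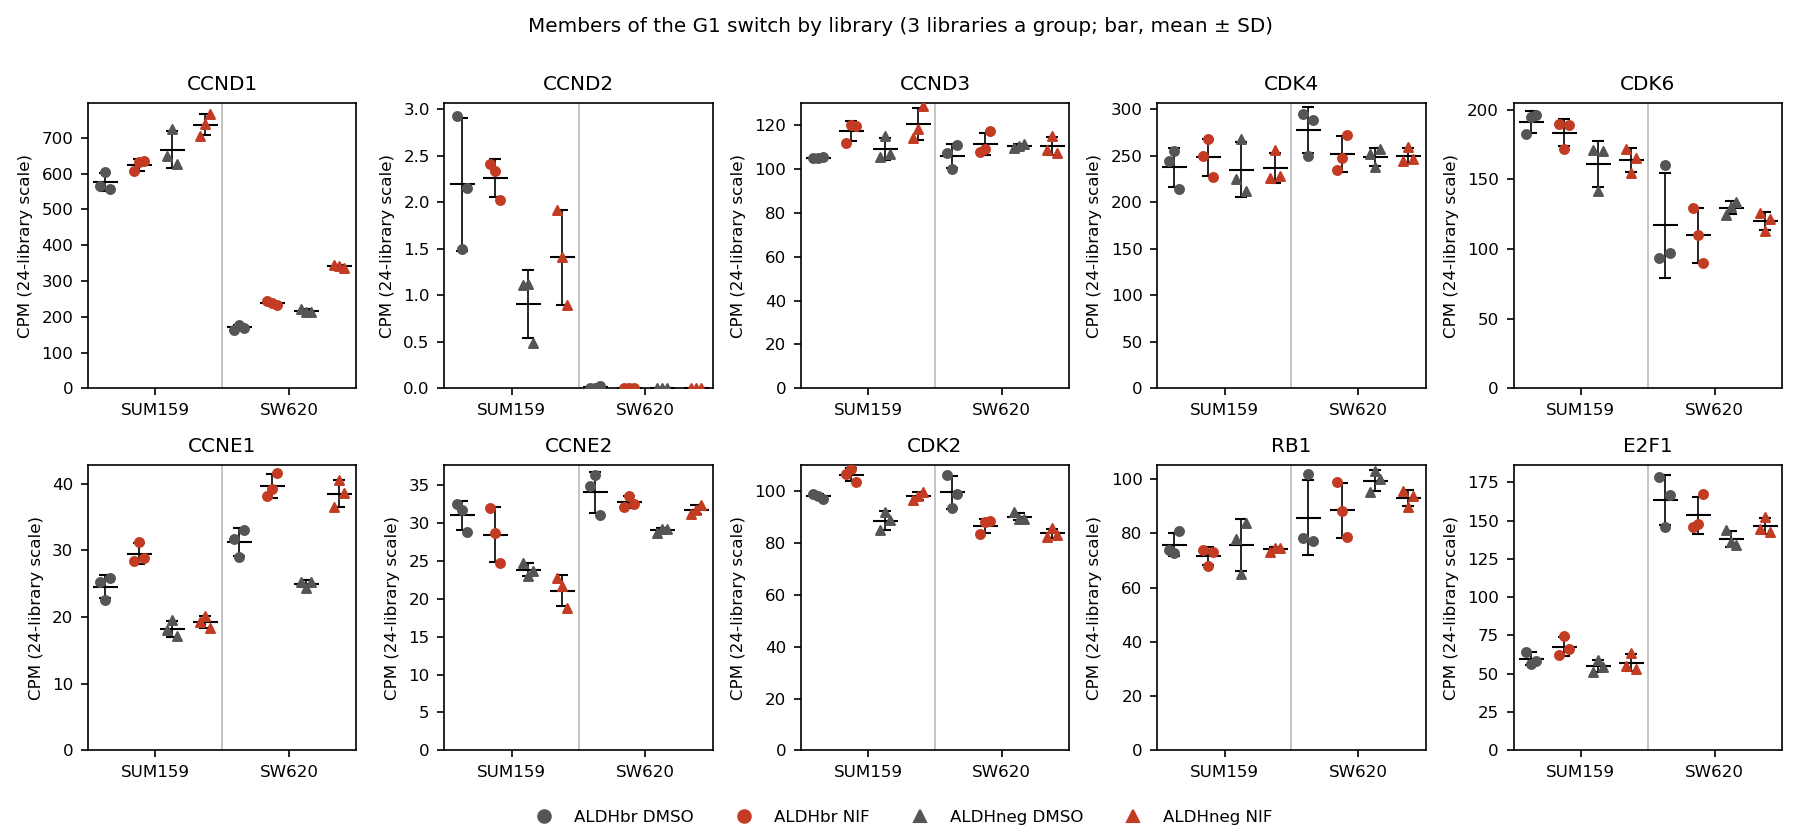
Level of each of the 10 genes in every library, in CPM on the common scale of all 24 libraries (vertical axis, linear, from 0), for SUM159 (left of the grey line) and SW620 (right). Circles are ALDHbr and triangles ALDHneg cells, grey DMSO and red NIF, with bars for the mean ± SD of 3 libraries. CCND1 stands higher in SUM159, E2F1 stands higher in SW620, and CCND2 is at 0 or 1 count in every SW620 library.

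Per kilobase of transcript, which allows levels of different genes to be compared, CCND1 and CDK4 headed the list in SUM159. In ALDHbr cells under DMSO, CCND1 stood at 145 ± 6.30 CPM per kb and CDK4 at 136 ± 11.9 (SD, n = 3), and their ranges overlapped. CCND3 followed at 55.3, CDK2 at 46.6 and E2F1 at 23.7 CPM per kb, with no overlap between these neighbours. CDK6 (17.5) and RB1 (17.0) overlapped, as did CCNE1 (13.4) and CCNE2 (12.3), and CCND2 came last at 0.360 CPM per kb. In SW620 ALDHbr cells under DMSO, CDK4 led alone at 140 ± 12.7 CPM per kb (SD, n = 3). E2F1 (57.2) overlapped with CCND3 (49.3), and CDK2 (41.8) overlapped with CCND1 (37.8), which held rank 5 here and rank 1 in SUM159.

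Between the lines, CCND1, CCND2 and E2F1 showed the largest differences among the members under DMSO. In ALDHbr cells, CCND1 stood at 565, 605 and 558 CPM in SUM159 and at 164, 178 and 169 CPM in SW620, on the scale common to all 24 libraries. The 2 lines did not overlap, and SW620 was lower by a log2 fold change of -1.76 (SE 0.057, adjusted p = 4.118e-19). In ALDHneg cells the difference was -1.62 (adjusted p = 1.832e-18). E2F1 ran the other way, at 64.5, 56.6 and 58.2 CPM in SUM159 ALDHbr cells against 178, 146 and 167 CPM in SW620. Its log2 fold change was 1.45 (SE 0.086, adjusted p = 7.893e-14) in ALDHbr and 1.33 (adjusted p = 4.508e-13) in ALDHneg cells. CCND2 was close to silent in SW620. In ALDHbr cells under DMSO it had 233 counts in SUM159 and 1 in SW620, a ratio of 233 (exact 95% interval 41.5 to 9260, counting error only). In ALDHneg cells it had 100 counts in SUM159 and 0 in SW620, at least 31.5-fold higher in SUM159 against a floor of 3 counts over the group.

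Other members differed less between the lines. CDK6 was lower in SW620, by -0.71 (adjusted p = 6.003e-05) in ALDHbr and -0.32 (adjusted p = 0.04059) in ALDHneg cells on the log2 scale. In SW620 ALDHbr cells, replicate 2 held CDK6 at 160 CPM and the other libraries at 93.4 and 97.3 CPM, on the common scale. CCNE1 was higher in SW620, by 0.35 (adjusted p = 0.0001042) in ALDHbr and 0.45 (adjusted p = 4.397e-06) in ALDHneg cells. CDK4 was higher in ALDHbr cells (0.22, adjusted p = 0.02086), and CCNE2 (0.29, adjusted p = 0.003294) and RB1 (0.39, adjusted p = 0.0006097) in ALDHneg cells. In all, 6 of the 10 genes passed the test in ALDHbr and 7 in ALDHneg cells, where 81.3% and 81.2% of the 16271 genes tested did (39.6% and 38.5% higher in SW620). CCND3 and CDK2 did not pass, at 0.01 and 0.02 in ALDHbr cells and 0.02 and 0.03 in ALDHneg cells. Scaling by library size alone turned both genes to called lower values in SW620, at -0.14 and -0.13 in ALDHbr and -0.15 and -0.14 in ALDHneg cells, and moved the median of all genes to -0.202 and -0.239. The calls on CDK4 and on CDK6 in ALDHneg cells each rested on single libraries. CDK4 in ALDHbr cells lost its call without SUM159 DMSO replicate 3 (0.14, adjusted p = 0.1533) or without SW620 DMSO replicate 1 or 3 (0.18 and 0.20). CDK6 in ALDHneg cells lost it without SUM159 DMSO replicate 1 or 3, or without SW620 DMSO replicate 1, 2 or 3, at -0.34 to -0.28. The fit with the replicate block compares the lines at the fitted level of replicate 1, not at the group means. CDK6 (-0.35, adjusted p = 0.05444) and CCNE2 (0.17, adjusted p = 0.0606) in ALDHneg cells did not pass there, which is no check on their calls. Library-size scaling ended the calls on CDK4 in ALDHbr cells (0.07, adjusted p = 0.3576) and on CCNE2 (0.12, adjusted p = 0.2294) and RB1 (0.22, adjusted p = 0.06574) in ALDHneg cells.

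NIF against DMSO addressed whether the drug changed the RNA of the G1 switch. In SW620, CCND1 and CCNE1 rose in both fractions and CDK2 fell in ALDHbr cells, while the other 6 genes tested did not pass. In SUM159 none of the 10 passed in the fit without replicate numbers. With those numbers as a block, CCND3 and CCNE1 in ALDHbr and CCND1 and CDK2 in ALDHneg cells passed as higher. Since bulk RNA was measured, a change in the share of cells at a given cycle stage and a change in RNA per cell cannot be told apart.

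CCND1 (Entrez 595, chr11:69641156-69654474), the D-type cyclin most often induced by growth signals, stood at 154, 166 and 159 CPM in SW620 ALDHbr cells under DMSO and at 227, 224 and 218 CPM under NIF. ALDHneg cells had 209, 202 and 200 CPM under DMSO and 323, 320 and 315 CPM under NIF. In both fractions every NIF library was above every DMSO library. The log2 fold change was 0.48 (SE 0.046, 1.39-fold, adjusted p = 1.431e-06) in ALDHbr and 0.65 (SE 0.046, 1.57-fold, adjusted p = 6.047e-08) in ALDHneg cells.

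CCNE1 (Entrez 898, chr19:29811991-29824312), the E-type cyclin that activates CDK2, stood at 29.9, 27.2 and 31.2 CPM in SW620 ALDHbr cells under DMSO and at 35.8, 36.9 and 38.9 CPM under NIF. In ALDHneg cells it went from 23.7, 23.0 and 23.8 CPM to 34.2, 37.9 and 36.1 CPM. The treated and control libraries did not overlap in either fraction. The log2 fold change was 0.34 (SE 0.065, 1.26-fold, adjusted p = 0.0008562) in ALDHbr and 0.62 (SE 0.066, 1.53-fold, adjusted p = 3.535e-06) in ALDHneg cells. CCNE2, its paralog on chromosome 8, gave -0.06 (adjusted p = 0.4717) and 0.12 (adjusted p = 0.1329).

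CDK2 (Entrez 1017, chr12:55966830-55972789), the partner of the E cyclins, stood at 100, 87.7 and 93.2 CPM in SW620 ALDHbr cells under DMSO and at 78.4, 83.0 and 82.8 CPM under NIF. These libraries did not overlap, and the log2 fold change was -0.20 (SE 0.055, adjusted p = 0.008173). The call on CDK2 was lost where only the 6 libraries compared entered the fit (-0.20, adjusted p = 0.0662). In ALDHneg cells, 86.4, 84.4 and 84.1 CPM under DMSO stood against 77.2, 80.3 and 77.9 CPM under NIF, and the change of -0.12 on the log2 scale did not pass (adjusted p = 0.1049). Scaling by library size alone brought CDK2 in ALDHneg cells past the threshold, at -0.17 (adjusted p = 0.008741).

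The remaining members showed no called change in SW620. CCND3 (chr6:41934933-42050035), the D cyclin present at similar levels in both lines, gave log2 fold changes of 0.07 in ALDHbr and -0.01 in ALDHneg cells. CDK4 (chr12:57747727-57752310), the main D-cyclin kinase by level, gave -0.15 and -0.00. CDK6 (chr7:92604921-92836573), its paralog, gave -0.09 (95% interval -0.45 to 0.27) and -0.12 (-0.48 to 0.24), the widest intervals among the members tested. RB1 (chr13:48303751-48481890), the pocket protein that the kinases inactivate, gave 0.04 and -0.10. E2F1 (chr20:33675477-33686385), the factor it holds, gave -0.10 and 0.07. CCND2 (chr12:4273762-4305353) was not tested in SW620.

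In total, 3 of the 9 genes tested were called in SW620 ALDHbr cells and 2 of 9 in ALDHneg cells, where 43.3% and 45.1% of the 13953 genes tested were called. Both shares lay below the background. Without SW620 ALDHbr DMSO replicate 2, 6 of the members were called in ALDHbr cells, namely CCND1 (0.52), CCNE1 (0.30), CDK2 (-0.23), CDK4 (-0.20, adjusted p = 0.007074), RB1 (0.20, adjusted p = 0.04575) and E2F1 (-0.16, adjusted p = 0.03887). In that fit 7136 of 14147 genes were called. Its remaining controls, replicates 1 and 3, had long-gene medians relative to shorter genes of -0.223 and -0.169. Replicate 2 had 0.0682, and the SW620 ALDHneg libraries under DMSO had 0.0388, 0.0599 and 0.0447. CDK4 in ALDHbr cells also passed without NIF replicate 3 (-0.20, adjusted p = 0.0338). With only the 6 libraries compared, 6 members were called in ALDHneg cells, with CDK6 (-0.11), CCNE2 (0.13), CDK2 (-0.11) and RB1 (-0.10) beside CCND1 and CCNE1. That fit called 8245 of 13613 genes.

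**Figure D2:**
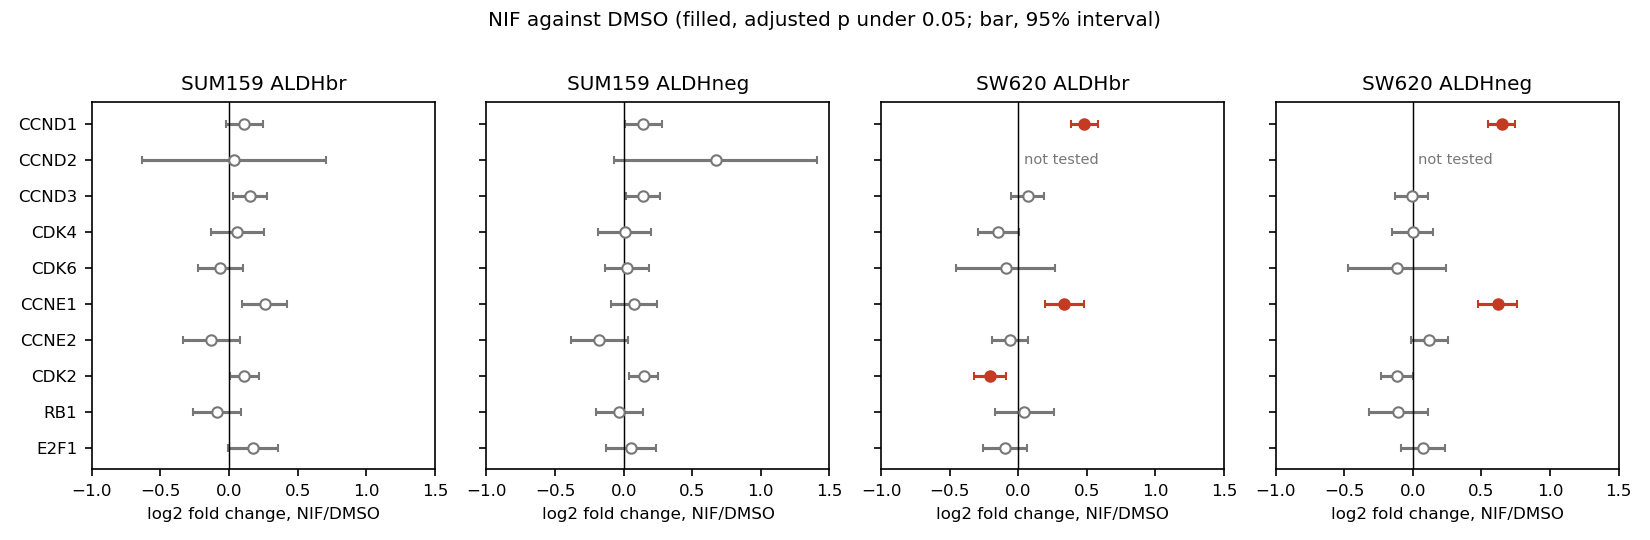
Log2 fold change of NIF over DMSO (horizontal axis) for the 10 genes in each line and fraction, 3 libraries against 3, with 95% intervals as bars. Filled red points passed the test over all genes (adjusted p under 0.05) and open grey points did not. CCND1 and CCNE1 are filled in both SW620 panels (0.48 and 0.34, 0.65 and 0.62), CDK2 in SW620 ALDHbr cells (-0.20), and none is filled in SUM159. The fits shown had no replicate block, with which some SUM159 members passed.

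In SUM159, CCND1 stood at 603, 644 and 593 CPM in ALDHbr cells under DMSO and at 645, 672 and 671 CPM under NIF. Its log2 fold change was 0.11 (95% interval -0.02 to 0.24, adjusted p = 0.4025) there and 0.14 (0.01 to 0.28, adjusted p = 0.2562) in ALDHneg cells. CCNE1 in ALDHbr cells stood at 27.0, 24.1 and 27.5 CPM under DMSO and at 30.3, 33.3 and 30.6 CPM under NIF. These libraries did not overlap, yet the log2 fold change of 0.26 (SE 0.076) did not pass (adjusted p = 0.08395). CDK2 likewise did not overlap in either fraction, with 0.11 (adjusted p = 0.2733) in ALDHbr and 0.15 (adjusted p = 0.1391) in ALDHneg cells. Of the 10 genes 0 were called in each fraction by edgeR, against a background of 3.16% of 14953 genes in ALDHbr (0.936% higher, 2.23% lower) and 3.3% in ALDHneg cells (1.1% higher, 2.2% lower). CCND3, CCNE1 and CDK2 in ALDHbr and CCND1, CCND3 and CDK2 in ALDHneg cells had an unadjusted p under 0.05 in edgeR. The share of all genes under that unadjusted threshold is not given, so no excess among the members can be read from it. DESeq2 called CCNE1 in ALDHbr (0.26, adjusted p = 0.0405) and CDK2 in ALDHneg cells (0.15, adjusted p = 0.04591), and the fit of all 24 libraries called CCNE1 in ALDHbr cells (0.26, adjusted p = 0.03364).

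Libraries of SUM159 with the same replicate number belonged together, and a fit with the replicate block called more. In ALDHbr cells CCND3 (0.15, adjusted p = 0.04116) and CCNE1 (0.26, adjusted p = 0.0196) were then higher under NIF. In ALDHneg cells CCND1 (0.15, adjusted p = 0.04153) and CDK2 (0.15, adjusted p = 0.03574) were. All genes called went from 473 to 1994 in ALDHbr and from 493 to 1970 in ALDHneg cells with the block.

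The NIF effect was then compared between the lines in 1 fit of all 24 libraries. In ALDHbr cells it was larger in SW620 for CCND1, by 0.37 (SE 0.079, adjusted p = 0.001309), and more negative for CDK2, by -0.32 (SE 0.072, adjusted p = 0.00224). In ALDHneg cells CCND1 (0.51, adjusted p = 3.069e-05), CCNE1 (0.55, adjusted p = 0.000279) and CDK2 (-0.25, adjusted p = 0.01206) differed. These were 2 and 3 of the 10 genes, where 23.1% and 22.4% of all genes differed. CCNE1 did not pass in ALDHbr cells (0.08, 95% interval -0.13 to 0.28). CCNE2 in ALDHneg cells missed the threshold (0.30, adjusted p = 0.06798) but passed with the replicate block (0.31, adjusted p = 0.01655), with DESeq2 (0.31, adjusted p = 0.04666) and without SUM159 ALDHneg NIF replicate 1 (0.38, adjusted p = 0.03059). E2F1 in ALDHbr cells missed it (-0.27, adjusted p = 0.1083) but passed without SW620 ALDHbr DMSO replicate 2 (-0.35, adjusted p = 0.02534) and with library-size scaling (-0.29, adjusted p = 0.04442). CDK2 in ALDHneg cells lost its call with no filter on low counts (-0.25, adjusted p = 0.05687).

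Within a line, the NIF effect was not shown to differ between the fractions for any member. The 2 members closest to the threshold were CCNE1 (-0.28, SE 0.092, adjusted p = 0.6729) and CCND1 (-0.17, SE 0.064, adjusted p = 0.7769) in SW620, both with an unadjusted p under 0.05 in edgeR, and no member of SUM159 was under it. Among all genes edgeR called 0.00717% in SW620 and 0% in SUM159 at the adjusted threshold, and the share under the unadjusted threshold is not given.

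ALDHbr cells were next compared with ALDHneg cells of the same line and treatment. CCND1 was lower in ALDHbr cells in all 4 comparisons, and CCNE1 was higher in 3 of them. CCNE2 was higher in SUM159 under both treatments and in SW620 under DMSO.

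For CCND1, the SUM159 DMSO libraries held 603, 644 and 593 CPM in ALDHbr and 693, 768 and 672 CPM in ALDHneg cells. The fractions did not overlap, and the log2 fold change was -0.21 (SE 0.063, adjusted p = 0.02308). Under NIF the values were 645, 672 and 671 CPM against 753, 784 and 820 CPM, a log2 fold change of -0.25 (adjusted p = 0.01052). In SW620, whose values are given above, it was -0.35 (SE 0.046, adjusted p = 0.000251) under DMSO and -0.52 (SE 0.045, adjusted p = 1.452e-05) under NIF, again with no overlap. The SUM159 call on CCND1 under DMSO was lost without ALDHbr replicate 1 (-0.20, adjusted p = 0.08352), ALDHbr replicate 3 (-0.19, adjusted p = 0.09678) or ALDHneg replicate 2 (-0.15, adjusted p = 0.07212). Under NIF it was lost without ALDHneg replicate 3 (-0.21, adjusted p = 0.05316). With the replicate block and all libraries it passed under DMSO (-0.21, adjusted p = 0.0009961) and under NIF (-0.25, adjusted p = 0.0002343).

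The E cyclins ran opposite to CCND1. SUM159 ALDHneg cells held CCNE1 at 19.2, 20.8 and 18.4 CPM under DMSO and at 20.5, 21.4 and 19.6 CPM under NIF, below every ALDHbr library of the same treatment. The log2 fold change was 0.43 (SE 0.077, adjusted p = 0.0008482) under DMSO and 0.61 (SE 0.077, adjusted p = 3.35e-05) under NIF. In SW620 CCNE1 was higher in ALDHbr cells under DMSO (0.33, adjusted p = 0.006775) and gave 0.05 (adjusted p = 0.7246) under NIF.

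CCNE2 stood at 34.7, 33.7 and 30.7 CPM in SUM159 ALDHbr and 26.4, 24.4 and 25.4 CPM in ALDHneg cells under DMSO. Under NIF the values were 34.0, 30.5 and 26.1 CPM against 24.3, 22.9 and 20.0 CPM. The fractions did not overlap under either treatment, with log2 fold changes of 0.38 (SE 0.097, adjusted p = 0.0107) and 0.43 (SE 0.097, adjusted p = 0.005169). In SW620 under DMSO it was 0.23 (adjusted p = 0.03232), a call that was lost without ALDHbr replicate 1 (0.21) or without ALDHneg replicate 1 (0.21), 2 (0.23) or 3 (0.23), and in 5 other fits.

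Among the other members in SUM159, CCND2 under DMSO had 101, 47 and 85 counts in ALDHbr and 42, 37 and 21 counts in ALDHneg cells, and was higher by 1.30 on the log2 scale (SE 0.34, adjusted p = 0.01222). The call on CCND2 was lost without ALDHbr replicate 1 (1.04, adjusted p = 0.06445). CDK6 was higher in ALDHbr cells, at 195, 208 and 209 CPM against 183, 150 and 183 CPM (0.25, SE 0.076, adjusted p = 0.03095). The call on CDK6 was lost without ALDHbr replicate 2 (0.23), ALDHbr replicate 3 (0.23) or ALDHneg replicate 2 (0.16). With the replicate block and all libraries, CCND2 (1.32, adjusted p = 0.0003342) and CDK6 (0.25, adjusted p = 0.0009662) passed under DMSO. In all, 5 of 10 genes were called under DMSO and 3 under NIF, where 23% (10.7% higher) and 21.9% (9.95% higher) of all genes were. With the replicate block, CDK2 was added under DMSO (0.14, adjusted p = 0.01689), and CCND2 (0.70, adjusted p = 0.02634), CDK6 (0.16, adjusted p = 0.0275) and E2F1 (0.24, adjusted p = 0.006903) under NIF, which made 6 called genes in each. The block called 5388 of 14953 genes under DMSO and 5270 under NIF. With only the 6 libraries compared, 3 members were called under DMSO, beside 2875 of 14438 genes.

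In SW620, 3 of 9 genes were called under DMSO and 1 under NIF, where 11.3% (5.45% higher, 5.86% lower) and 6.67% (3.41% higher) of all genes were. E2F1 under DMSO stood at 168, 137 and 157 CPM in ALDHbr and 135, 129 and 126 CPM in ALDHneg cells, with no overlap and a log2 fold change of 0.24 that just missed the threshold (adjusted p = 0.05027). CDK6 showed the difference of replicate 2 most plainly, at 88.0, 150 and 91.7 CPM in ALDHbr cells under DMSO, and RB1 at 73.6, 95.3 and 72.9 CPM. Without that replicate 2, 8 of 9 members were called under DMSO: CCND1 (-0.39), CDK6 (-0.46, adjusted p = 0.003419) and RB1 (-0.37, adjusted p = 0.002058) lower and CDK4 (0.22), CCNE1 (0.36), CCNE2 (0.17), CDK2 (0.17) and E2F1 (0.31, adjusted p = 0.00127) higher in ALDHbr cells. All genes called then went from 1577 of 13953 to 5487 of 14147. The part of transcript span in these differences was not tested. Among the other ALDHbr libraries of SW620, the long-gene median relative to short genes was -0.223 and -0.169 under DMSO and 0.0789, 0.00225 and -0.147 under NIF, and it was 0.0351 to 0.102 in the ALDHneg libraries.

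**Figure D3:**
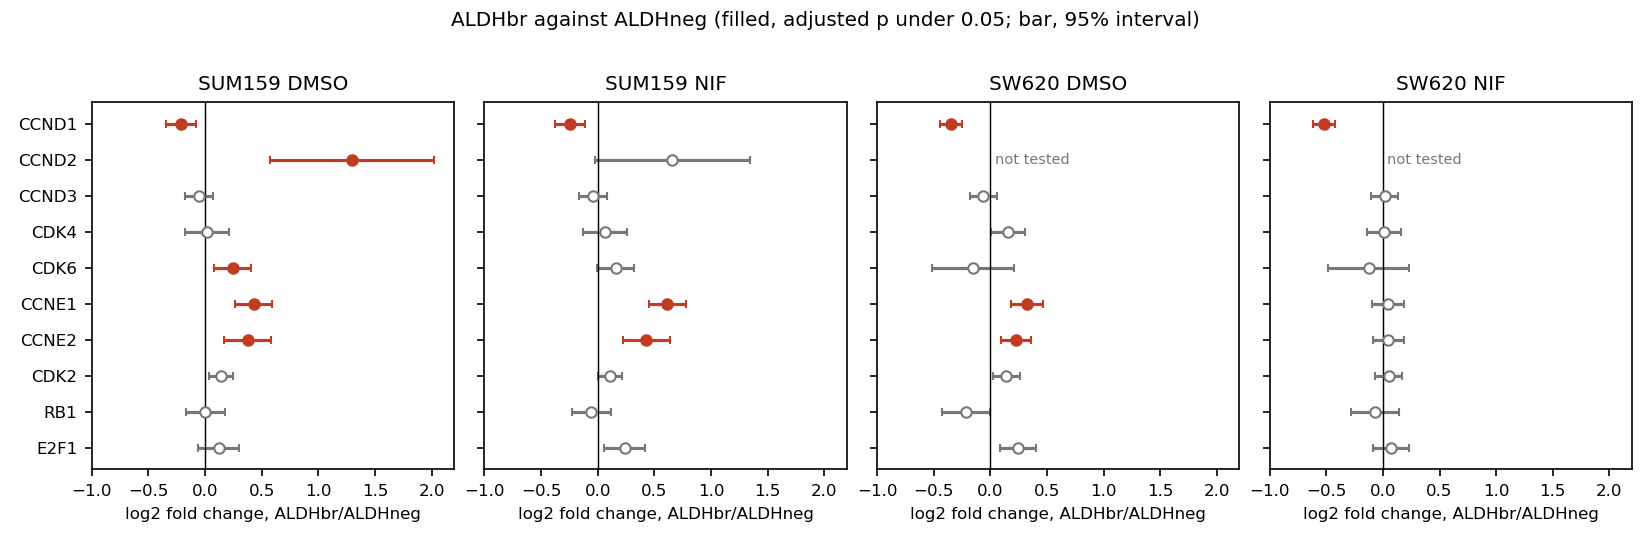
Log2 fold change of ALDHbr over ALDHneg cells (horizontal axis) for the 10 genes in each line and treatment, 3 libraries against 3, with 95% intervals as bars. Filled red points passed the test over all genes and open grey points did not. CCND1 lies left of 0 in all 4 panels (-0.21, -0.25, -0.35 and -0.52), while CCNE1 and CCNE2 lie to the right and are filled in all panels but SW620 NIF.

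The mixture of cyclins differed between the lines in its values. Per kilobase, CCND1 made up 71.4% to 75.0% of the D-type cyclin RNA in every SUM159 library. In SW620 its share was 42.1% to 45.9% in ALDHbr and 47.7% to 49.2% in ALDHneg cells under DMSO, and 48.7% to 51.8% and 58.6% to 60.2% under NIF. CCND3 made up nearly all of the rest. The ratio of CCNE1 to CCNE2 per kilobase averaged 1.09 ± 0.125 in SUM159 ALDHbr and 1.05 ± 0.097 in ALDHneg cells under DMSO and 1.44 ± 0.196 and 1.26 ± 0.094 under NIF (SD, n = 3). In SW620 it averaged 1.27 ± 0.184 and 1.18 ± 0.033 under DMSO and 1.66 ± 0.085 and 1.66 ± 0.075 under NIF (SD, n = 3). In SW620 the treated libraries lay above the controls in both fractions, and in SUM159 the groups overlapped, although the ratio was higher under NIF in each of the 6 NIF libraries than in the DMSO library of equal number. CDK4 made up 87.2% to 95.2% of the CDK4 and CDK6 RNA per kilobase in all libraries.

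**Figure D4:**
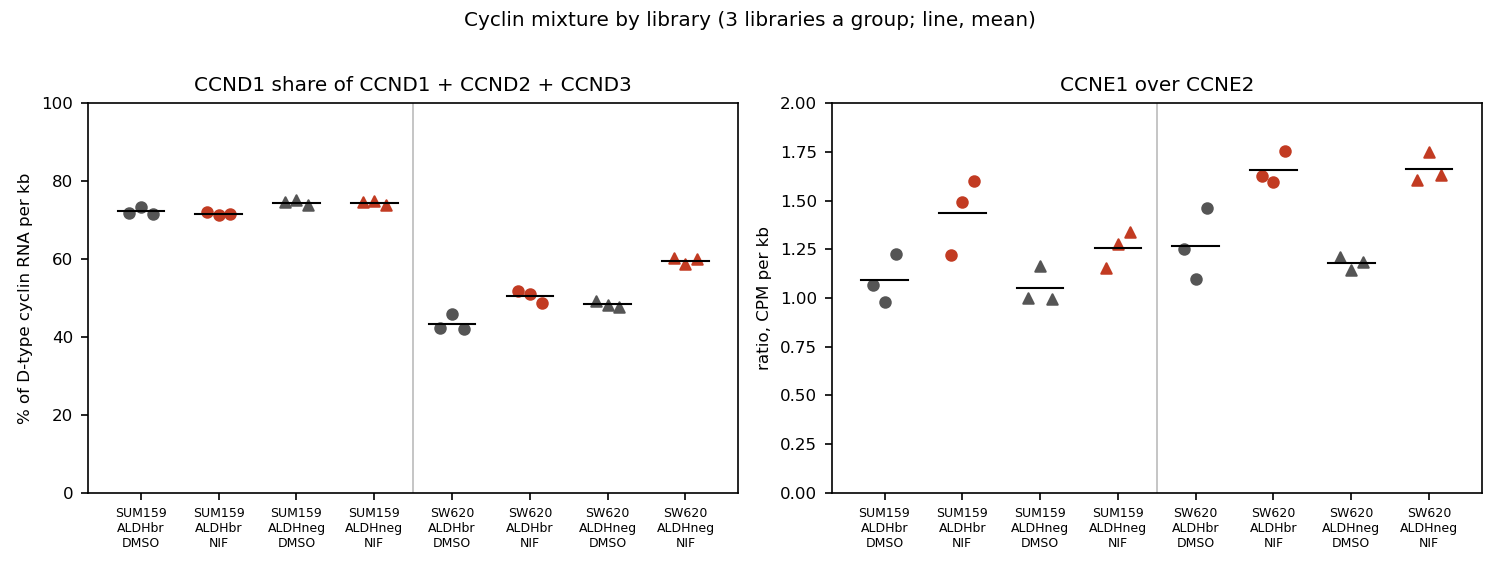
Left, share of CCND1 in the summed CPM per kb of CCND1, CCND2 and CCND3 (percent). Right, ratio of CCNE1 to CCNE2 in CPM per kb. Each point is a library, colors and shapes as by treatment (grey DMSO, red NIF) and fraction (circle ALDHbr, triangle ALDHneg), and lines are means of 3. The CCND1 share is 71.4% to 75.0% in SUM159 and 42.1% to 60.2% in SW620, highest there in ALDHneg cells under NIF.

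Around the 10 genes, single inhibitors of the kinases moved in both directions under NIF in SW620. CDKN1A, which encodes p21, a CIP/KIP inhibitor and a textbook p53 target, stood at 23.9, 27.0 and 28.6 CPM in ALDHbr cells under DMSO and at 96.2, 98.3 and 104 CPM under NIF. In ALDHneg cells 25.6, 26.3 and 30.9 CPM stood against 120, 127 and 119 CPM. Neither pair of groups overlapped, and the log2 fold changes were 1.91 (3.76-fold, adjusted p = 4.112e-10) and 2.15 (4.43-fold, adjusted p = 1.057e-10). CDKN2B, an INK4 inhibitor of CDK4 and CDK6, rose by 1.23 and 1.29 on the log2 scale. CDKN2C, a further INK4 member, fell by 0.87 and 0.88, and CDKN1B, which encodes p27, fell in ALDHneg cells (-0.25, adjusted p = 0.01251) and gave -0.18 (adjusted p = 0.05953) in ALDHbr cells. The call on CDKN1B was lost without ALDHneg DMSO replicate 3 or NIF replicate 3 (-0.21 each). Of the 7 inhibitors, 2 rose and 1 fell in ALDHbr cells and 2 rose and 2 fell in ALDHneg cells, with medians of -0.182 and -0.0413. These are 3 and 4 of 7, beside 43.3% and 45.1% of all genes called, and without SW620 ALDHbr DMSO replicate 2 the count in ALDHbr cells was 2 higher and 2 lower.

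In SUM159, CDKN1A gave 0.16 (adjusted p = 0.3595) in ALDHbr and 0.30 (adjusted p = 0.07219) in ALDHneg cells under NIF. CDKN1B went from 26.0, 23.8 and 24.6 CPM to 20.5, 15.4 and 15.0 CPM in ALDHbr cells, with a log2 fold change of -0.55 (adjusted p = 0.0149), and fell in ALDHneg cells too (-0.45, adjusted p = 0.0421). The call on CDKN1B was lost in ALDHbr cells without DMSO replicate 1 (-0.51), NIF replicate 2 (-0.48) or NIF replicate 3 (-0.46), and in ALDHneg cells without DMSO replicate 1 or 2 or any NIF library, at -0.51 to -0.37. CDKN2C fell by 0.33 and 0.40 on the log2 scale, in ALDHbr cells not past the threshold without DMSO replicate 1 or NIF replicate 3 (-0.29 each). With the replicate block and all libraries, CDKN1B passed in ALDHbr (-0.56, adjusted p = 2.745e-05) and ALDHneg cells (-0.45, adjusted p = 0.000281). So did CDKN2C in ALDHbr (-0.33, adjusted p = 0.001192) and ALDHneg cells (-0.40, adjusted p = 0.0001508). CDKN2A and CDKN2B were near 0 in this line, with at most 8 counts of CDKN2B and at most 1 of CDKN2A per library, except 22 counts of CDKN2A in ALDHbr DMSO replicate 3. Of the 5 inhibitors tested in SUM159, 2 fell in each fraction and none rose, with medians of -0.0433 and 0.027. Over all genes 2.23% and 2.2% were called lower.

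Downstream, the E2F targets of the G1/S transition fell in SW620 under NIF. In ALDHbr cells 21 of 23 were called lower and none higher, the median being -0.385 on the log2 scale against -0.00701 over all genes. In ALDHneg cells 18 were lower and 1 higher, with a median of -0.302 against -0.00762. Over all genes 21.9% were called lower in ALDHbr and 22.7% in ALDHneg cells. TYMS, which makes thymidylate for DNA synthesis and carries the E2F word shown above, fell by 0.71 and 0.69 on the log2 scale. Among the others, POLA1, the DNA polymerase alpha subunit of the polymerase alpha-primase complex, fell by 0.60 in ALDHbr cells. CCNA2, the S-phase cyclin that also binds CDK2, fell by 0.65 in ALDHneg cells. The exception was CDC6, a licensing factor of replication origins, which rose in ALDHneg cells (0.16, adjusted p = 0.01519), a call lost without NIF replicate 1 (0.15, adjusted p = 0.0595) and with library-size scaling (0.10). Leaving out SW620 ALDHbr DMSO replicate 2, an alternative chosen for this list after seeing the data, gave 21 E2F targets called lower in ALDHbr cells, with a median of -0.416.

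The S phase genes of the Seurat phase list, of which the E2F targets share 12, were lower in 35 of 43 cases in ALDHbr cells and lower in 28 and higher in 1 in ALDHneg cells. G2/M genes were lower in 45 and higher in 1 of 54, and lower in 47 of 54. Called lower over all genes were 21.9% in ALDHbr and 22.7% in ALDHneg cells. Without SW620 ALDHbr DMSO replicate 2, 41 G2/M genes were lower and 1 higher in ALDHbr cells. The part of cell cycle stage in the members' values was not tested.

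In SUM159, 0.936% of all genes in ALDHbr and 1.1% in ALDHneg cells were called higher under NIF. Of the 23 E2F targets, 2 rose in each fraction and none fell, with medians of 0.0891 and 0.0197. They were CDC25A, the phosphatase that activates CDK2 (0.29 and 0.37), and ORC1, a subunit of the origin recognition complex (0.24 in both fractions). The ORC1 call was lost in ALDHbr cells without DMSO replicate 1 or 2 or any NIF library (0.23 to 0.25) and in ALDHneg cells without any 1 of the 6 libraries (0.20 to 0.27), and that on CDC25A in ALDHbr cells without DMSO replicate 2 (0.27). With the replicate block and all libraries, ORC1 passed in ALDHbr (0.24, adjusted p = 0.002545) and ALDHneg cells (0.24, adjusted p = 0.003264). CDC25A passed there in ALDHbr cells (0.29, adjusted p = 0.0003913). With the block, 8 E2F targets rose in ALDHbr cells, and 3 rose and 1 fell in ALDHneg cells. G2/M genes were lower in 13 and 5 of 54 cases, and in 32 and 28 with the block. Over all genes 2.23% and 2.2% were lower without the block. With it 863 and 912 of 14953 genes were higher and 1131 and 1058 lower. Between the lines, the NIF effect on the E2F targets was more negative in SW620 for 21 of 23 in ALDHbr and 16 in ALDHneg cells, where 10.7% and 10.5% of all genes had a more negative effect. Without SW620 ALDHbr DMSO replicate 2, the count in ALDHbr cells was 22 of 23.

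**Figure D5:**
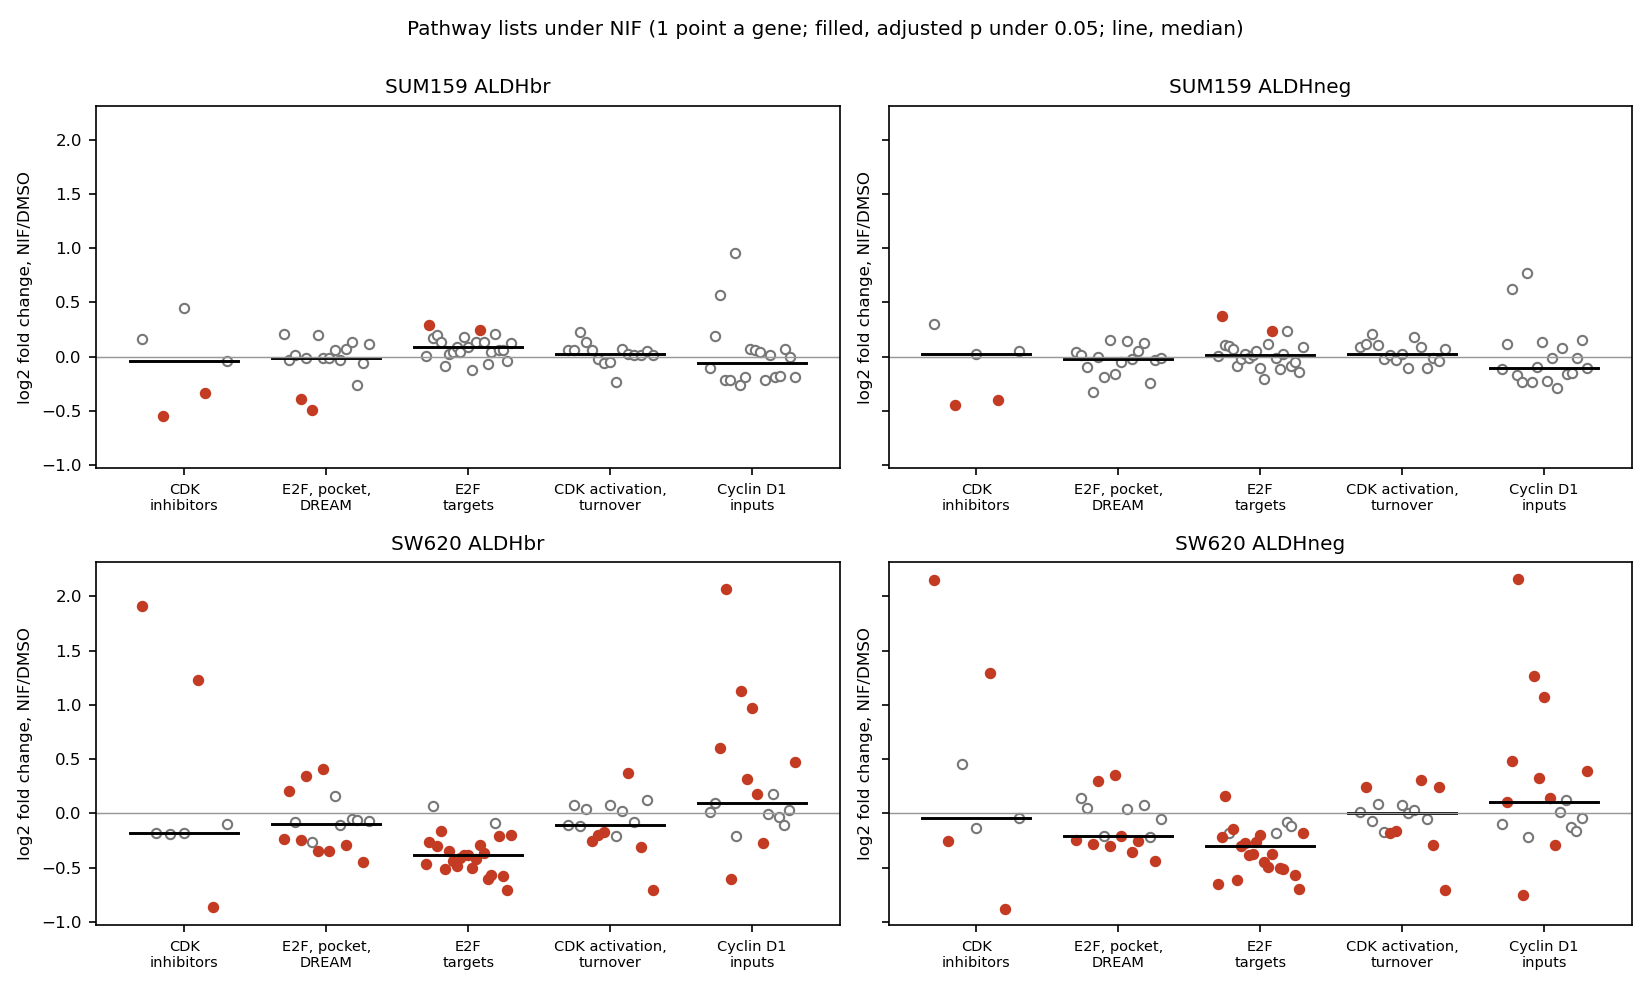
Log2 fold change of NIF over DMSO (vertical axis) for the genes of 5 pathway lists in each line and fraction, 1 point per gene tested and a line at the list's median. Filled red points passed the test over all genes and open grey points did not. In SW620 the E2F targets lie almost wholly below 0 (medians -0.385 and -0.302), with CDKN1A (1.91 and 2.15) and ETS1 (2.07 and 2.16) far above, and in SUM159 few points are filled.

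Partners of E2F and RB1 shifted in both directions. In SW620, 3 of 16 rose and 6 fell in ALDHbr cells, and 2 rose and 7 fell in ALDHneg cells, with medians of -0.0933 and -0.207. The 9 called in each fraction stand beside 43.3% and 45.1% of all genes. Without SW620 ALDHbr DMSO replicate 2, 4 rose and 4 fell in ALDHbr cells. TFDP1, the dimerization partner of the E2Fs, fell by 0.45 and 0.44 on the log2 scale, and E2F8, a repressor of the family, fell by 0.35 in ALDHbr cells. E2F6, another repressor, rose (0.35 and 0.30), as did LIN37 of the DREAM complex (0.40 and 0.36). In SUM159, E2F7 (-0.49) and E2F5 (-0.38) fell in ALDHbr cells and none of the 16 was called in ALDHneg cells. Over all genes 3.16% and 3.3% were called there. The E2F5 call was lost without any 1 of the 6 libraries compared (-0.40 to -0.36), and that on E2F8 in SW620 without ALDHbr DMSO replicate 2 (-0.19) or NIF replicate 3 (-0.28). In SUM159 the replicate block called 1 higher and 3 lower in ALDHbr cells, E2F5 (-0.38, adjusted p = 0.006312) among them, and 3 lower in ALDHneg cells.

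Among 15 genes of CDK activation and cyclin turnover in SW620, 1 rose and 5 fell in ALDHbr cells and 3 rose and 4 fell in ALDHneg cells, with medians of -0.109 and 0.00179. The 6 and 7 called lay near the background of 43.3% and 45.1% of all genes. Without SW620 ALDHbr DMSO replicate 2, 1 rose and 6 fell in ALDHbr cells. SKP2, the ubiquitin ligase subunit that marks p27 for destruction, stood at 94.1, 102 and 89.4 CPM under DMSO and 60.9, 59.7 and 54.2 CPM under NIF in ALDHbr cells, and fell by 0.71 in each fraction on the log2 scale. GSK3B, a kinase that phosphorylates cyclin D1, rose (0.37 and 0.31), though in ALDHneg cells not past the threshold without DMSO or NIF replicate 1 or 3 (0.30 to 0.31). None of the 15 was called in SUM159, where 3.16% and 3.3% of all genes were, with medians of 0.0246 and 0.0273. The replicate block called 1 higher in each fraction.

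Upstream of cyclin D1, 7 of 17 transcription inputs rose and 2 fell in SW620 ALDHbr cells, and 8 rose and 2 fell in ALDHneg cells, with medians of 0.0928 and 0.105. The 9 and 10 called stand beside 43.3% and 45.1% of all genes, and without SW620 ALDHbr DMSO replicate 2, 8 rose and 3 fell in ALDHbr cells. ETS1, a transcription factor of the ETS family, stood at 9.94, 13.0 and 10.5 CPM under DMSO and 52.4, 44.4 and 43.1 CPM under NIF in ALDHbr cells, with log2 fold changes of 2.07 (adjusted p = 1.669e-09) there and 2.16 (adjusted p = 6.968e-10) in ALDHneg cells. FOSL1, an AP-1 subunit, rose by 1.13 and 1.27, while ETS2, of the ETS family like ETS1, fell by 0.60 and 0.75. MYC rose slightly (0.18 and 0.14), calls that the fit of all 24 libraries did not make (0.18 and 0.15), and STAT3, a factor that binds the CCND1 promoter, gave -0.04 (adjusted p = 0.6916) and -0.13 (adjusted p = 0.1381). In SUM159 none of the 18 inputs was called, where 3.16% and 3.3% of all genes were, with medians of -0.054 and -0.102. STAT3 gave -0.18 (adjusted p = 0.1457) and -0.15 (adjusted p = 0.2383) there. With the replicate block, 3 inputs rose and 8 fell in ALDHbr cells, and 3 rose and 5 fell in ALDHneg cells.

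Between the fractions of SUM159, CDKN1A and CDKN1C moved in opposite directions. CDKN1A stood at 111, 109 and 114 CPM in ALDHbr and 58.3, 57.7 and 52.7 CPM in ALDHneg cells under DMSO, higher by 0.98 on the log2 scale (adjusted p = 8.647e-07), and 0.84 (adjusted p = 4.017e-06) under NIF. CDKN1C, which encodes p57, was lower in ALDHbr cells (-1.47 and -1.05). The repressor E2F8 was lower as well (-0.55 and -0.51), whereas SKP2 (0.32 and 0.26) and STAT3 (0.31 and 0.29) were higher. In SUM159 the E2F targets were split, with 1 higher and 2 lower of 23 under DMSO and 4 higher and 1 lower under NIF, no more than the 23% and 21.9% of all genes called. The replicate block gave 6 higher and 3 lower, and 6 higher and 2 lower. In SW620 under DMSO, JUN (0.43) was higher in ALDHbr cells, 3 E2F targets were higher and 1 lower, and 19 of 54 G2/M genes were lower. Over all genes 5.45% were higher and 5.86% lower. Without ALDHbr DMSO replicate 2, 11 E2F targets were higher and 1 lower, 21 of 43 S phase genes were higher and 3 lower, against 7 higher with it, and 28 G2/M genes were lower and 1 higher. Partners of E2F and RB1 then went from 1 called to 1 higher and 6 lower, the turnover genes from 0 to 5 higher and 1 lower, the cyclin D1 inputs from 4 higher to 4 higher and 9 lower, and the inhibitors from 1 higher to 2 higher and 1 lower. Under NIF no E2F target and no G2/M gene was called between the SW620 fractions, while CDKN1A (-0.29), CDKN2B (-0.30) and ETS1 (-0.37) were lower in ALDHbr cells. These 3 calls were lost without ALDHbr NIF replicate 2 (-0.29, -0.27 and -0.33) or ALDHneg NIF replicate 1 or 3 (-0.31 to -0.30 for the inhibitors, -0.35 and -0.34 for ETS1). Those on CDKN1A and CDKN2B were lost without ALDHneg NIF replicate 2 too (-0.27 and -0.29), that on CDKN1A without ALDHbr NIF replicate 1 (-0.28) and that on ETS1 without ALDHbr NIF replicate 3 (-0.31).

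As a description of likeness, the genes whose log2 CPM moved most like a member were listed over the 24 libraries, after removing the mean of each line, among 8532 genes. For CCND1 they were ACTN4 (Pearson r 0.957), LRRC8A (0.934) and KRT80 (0.932). For CCNE2 they were ZC3H12A (0.889), IVNS1ABP (0.852) and MTURN (0.848), though within SW620 alone the first 2 reached only 0.372 and 0.189. For E2F1 they were ZMYND19 (0.917), COX4I1 (0.88) and COX6A1 (0.877). The libraries share groups and depth, so these values carry no test.

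Some members overlap other annotated genes, and the strand setting of the counting is not given in the sources used here. CDK4 overlaps TSPAN31, CCNE2 overlaps INTS8 and NDUFAF6, RB1 overlaps LPAR6, and CCND2 and CDK6 each overlap an antisense gene. Their counts are therefore uncertain to that extent.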

How the data were processed

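Stranded total RNA libraries were sequenced by the authors, who deposited raw counts per gene for 24 libraries. The submitters' processing notes name FastQC, STAR and the GRCh38 build, and the counting tool, annotation and strand setting are not given in the sources used here. Groups followed the labels, 8 groups of 3. The 10 genes and all lists were chosen with earlier results of these data known. For each line (12 libraries, 4 groups), genes were kept by filterByExpr, scaled by TMM and tested with edgeR 4.0.16 quasi-likelihood F tests in R 4.3.3, with Benjamini-Hochberg adjustment over all genes (14953 in SUM159, 13953 in SW620) and a threshold of 0.05. Comparisons between lines used 1 fit of all 24 libraries (16271 genes). Scripts were tested on simulated counts. Levels per kb used the MANE Select transcript length, and sequences came from RefSeq (GRCh38.p14). Phase lists came from Seurat 5.3.0.

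Besides the 10 genes, CDKN1A, CDKN1B, STAT3 and MYC were eligible to be named, with up to 2 highest and 2 lowest called genes per list and comparison at mean log2 CPM 1 or above, and the 3 genes most alike CCND1, CCNE2 and E2F1. Libraries with the same number deviated together in SUM159 (all 18 pairs correlated above 0.1, from 0.125 to 0.451) but not in SW620 (1 of 18), so the numbers were taken to pair SUM159 only. No 2 libraries of the same group agreed within sampling noise (chi-square per gene 1.95 to 43.1 over the 24 pairs within groups). Alternatives were RLE or library-size scaling, no filter, at least 10 counts in every library, the replicate block, DESeq2 1.42.0, all 24 or only the 6 libraries compared, and leaving out each library. All intervals and floors cover counting error or the spread between these libraries only.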

Additional observations from a re-analysis of the deposited data

Results flagged for a closer look

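The NIF effect differed between the lines, by a test of the difference itself in the fit of all 24 libraries, for the genes below. Values are the log2 effect in SW620 minus that in SUM159, 3 libraries in each group. In ALDHbr cells the members CCND1 (0.37) and CDK2 (-0.32) differed. So did the inhibitors CDKN1A (1.75) and CDKN2C (-0.54), and the partners LIN37 (0.41), E2F6 (0.36), E2F8 (-0.55) and E2F2 (-0.44). The E2F targets TYMS (-0.67) and TK1 (-0.64), the turnover genes GSK3B (0.34), SKP2 (-0.73) and CDC37 (-0.35), and the cyclin D1 inputs ETS1 (2.28), FOSL1 (1.38), FOS (-1.16) and ETS2 (-0.39) differed as well. The fit also gave CDKN2B a value of 1.91, but with 0 to 8 counts per SUM159 library its NIF effect was not measurable there, and the value is no test of a difference.

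In ALDHneg cells the members CCND1 (0.51), CCNE1 (0.55) and CDK2 (-0.25) differed, with the inhibitors CDKN1A (1.85) and CDKN2C (-0.47). The partners LIN37 (0.53), E2F6 (0.31), E2F8 (-0.45) and TFDP1 (-0.40), the E2F targets CCNA2 (-0.65) and MYBL2 (-0.60), and the turnover genes SKP2 (-0.77) and CDC37 (-0.27) did so too. Among the inputs, ETS1 (2.33), FOSL1 (1.502) and ETS2 (-0.51) differed.

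Some of these calls rested on single libraries. In ALDHbr cells, GSK3B was not called without any of 9 libraries (0.25 to 0.38), LIN37 without any of 7 (0.34 to 0.43), E2F8 without SUM159 NIF replicate 2 (-0.47) or SW620 NIF replicate 3 (-0.46), and FOS without SUM159 DMSO replicate 3 (-0.88), SUM159 NIF replicate 1 (-0.98) or 2 (-0.93), or SW620 NIF replicate 1 (-1.12). In ALDHneg cells, E2F8 was not called without any of 9 libraries (-0.47 to -0.37), nor CDC37 without any of 9 (-0.30 to -0.22), nor E2F6 without SUM159 DMSO replicate 2 (0.27).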

How the results depend on the processing

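With the replicate block, NIF called 2 members in SUM159 ALDHbr and 2 in ALDHneg cells, and the fractions under NIF differed in 6 members. DESeq2 called 1 member in each SUM159 fraction under NIF, and the fit of all 24 libraries 1 in ALDHbr cells. With only the 6 libraries compared, 3 members were called between the SUM159 fractions under DMSO and 6 for NIF in SW620 ALDHneg cells. Leaving out 1 library gave 3 to 5 members between the SUM159 fractions under DMSO and 2 to 4 under NIF, 3 to 6 for NIF in SW620 ALDHbr cells, 2 to 8 between the SW620 fractions under DMSO, and 2 to 3 for the line difference of the NIF effect in ALDHbr cells. Scaling by library size reversed the SW620 to SUM159 difference under DMSO of CCND3 (-0.14 in ALDHbr, -0.15 in ALDHneg) and CDK2 (-0.13 and -0.14), and ended the calls on CDK4 in ALDHbr cells (0.07) and on CCNE2 (0.12) and RB1 (0.22) in ALDHneg cells. CCND1 and CCNE1 under NIF in SW620 passed in all 14 alternatives. The causes were not tested.

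Over all genes, the block called 1994 and 1970 genes for NIF in SUM159, DESeq2 875 and 884, the fit of all 24 libraries 725 and 743, and the fit of 6 libraries 292 in ALDHneg cells. Between the SUM159 fractions the block called 5388 and 5270, against 3432 and 3281 without it. The fit of 6 libraries called 729 between the SW620 fractions under DMSO, against 1577, and 8245 of 13613 genes for NIF in SW620 ALDHneg cells.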
